A study of Homo sapiens with 6 samples.

Results

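Antisense genes named after the gene on the opposite strand were described in the merged transcript assembly of a human beta cell line from the pancreas, EndoC-βH1. Members were all gene names on chromosomes 1 to 22 and X that end in -AS, with or without a number, apart from IGF2-AS, GNAS-AS1, CDKN2B-AS1, BDNF-AS and the HOX names. There were 721 such names, with 1088 transcript models, among 25211 gene names in the assembly. The partner of each was the gene whose name stands before -AS, and 668 partner names were found. The assembly was built from 6 libraries of cells that had all received a lentiviral short hairpin RNA (shRNA) aimed at the promoter of the insulin gene INS. In 3 libraries the shRNA was induced with doxycycline at 1 mg/mL for 7 days, and 3 negative control libraries received no doxycycline. Nothing in the labels says whether the 3 libraries of a group came from separate cultures.

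The assembly holds exon positions without abundance, so a name in it is a gene structure and not a measure of expression. Of the 1088 models, 1033 match RefSeq transcripts exactly and 47 are joined models, defined below. The remaining few are in neither group. Depth is unknown, and induced and control cells could not be compared for any antisense gene. What could be measured is where each antisense gene lies relative to its partner and which bases the pair shares. It could also be counted which antisense genes have a model that the assembly tags as differing in splice pattern from the reference.

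A natural antisense transcript is made from the strand opposite another gene. Pairs that start back to back (head-to-head) often use one stretch of open, CpG-rich DNA that fires in both directions. Pairs that meet at their 3′ ends (tail-to-tail) can form double-stranded RNA over the shared exons, and a nested antisense gene is transcribed through the introns of its host. Antisense transcripts are known for silencing, stabilising or sponging functions at some loci, among them BACE1-AS, which stabilises the mRNA of the amyloid-processing protease BACE1.

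To show what lies between 2 genes that start back to back, the bases from the start of the antisense gene to that of its partner are given for 4 well-studied pairs, read 5′ to 3′ on the strand of the partner from GRCh37, with each CG dinucleotide in capitals. They are the listed names (islet and diabetes, or with a literature of their own) with a gap of at most 300 bases between the starts.
FGF10-AS1 (chr5:44388785-44388833, minus strand): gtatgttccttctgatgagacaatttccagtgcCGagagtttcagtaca
HAND2-AS1 (chr4:174451379-174451608, minus strand): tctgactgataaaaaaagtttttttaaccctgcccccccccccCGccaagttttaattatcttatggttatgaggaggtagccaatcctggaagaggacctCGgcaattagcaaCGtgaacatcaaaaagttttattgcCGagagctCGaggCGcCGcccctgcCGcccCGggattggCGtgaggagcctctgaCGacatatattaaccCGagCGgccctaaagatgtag
UCHL1-AS1 (chr4:41258745-41258897, plus strand): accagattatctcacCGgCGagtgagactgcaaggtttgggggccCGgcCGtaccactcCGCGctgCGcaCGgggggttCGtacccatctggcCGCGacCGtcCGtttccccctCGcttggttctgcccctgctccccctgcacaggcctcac
ZEB1-AS1 (chr10:31608025-31608100, plus strand): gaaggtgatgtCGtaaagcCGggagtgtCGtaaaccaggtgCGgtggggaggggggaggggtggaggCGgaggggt

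The stretch between ZEB1-AS1 and ZEB1, a repressor of epithelial genes, is 76 bases long with 5 CG dinucleotides and 65.8% GC. The 153 bases between UCHL1-AS1 and UCHL1, a neuronal and beta cell deubiquitinase, hold 14 CG dinucleotides at 67.3% GC. HAND2-AS1 and HAND2, a heart and limb transcription factor, are separated by 230 bases with 13 CG dinucleotides, and the letters CCAAT occur there on both strands. FGF10-AS1 and FGF10, a growth factor of lung and pancreas development, are only 49 bases apart, with 1 CG dinucleotide and 42.9% GC. Short distance and CpG content therefore did not go together in all 4.

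Of the head-to-head pairs with the shortest distance between starts, 5 are shown as 30 bases around the starts on the partner strand, with the bases in the gap (TMEM161B-AS1) or in the overlap (the other 4) in capitals.
TMEM161B-AS1 (chr5:87564683-87564712, minus strand): gctctggagaagggAGgaacttcctgtccc
DDX11-AS1 (chr12:31226766-31226795, plus strand): cccggagtgcgcaTGCgcagcggcgggggt
SEC24B-AS1 (chr4:110354958-110354987, plus strand): ccggccccgccttCCCttccctccgcccac
TM4SF1-AS1 (chr3:149095552-149095581, minus strand): aggatttcgtctgAAGGgcgggacattccc
HTT-AS (chr4:3076225-3076254, plus strand): ctgtcagcggccTTGCTgtgtgaggcagaa

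TMEM161B-AS1 and TMEM161B start 2 bases apart. The starts of DDX11-AS1 and the helicase gene DDX11 overlap by 3 bases, as do those of SEC24B-AS1 and SEC24B, a coat protein gene of vesicles leaving the endoplasmic reticulum. TM4SF1-AS1 overlaps the membrane protein gene TM4SF1 by 4 bases, and HTT-AS overlaps the huntingtin gene HTT by 5 bases, a distance that WDR11-AS1 and WDR11, not shown, also have.

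The third set shows exon bases that an antisense gene and its partner share, in capitals with 10 bases on either side in lower case, read on the antisense strand. The 3 pairs were chosen by hand as nested antisense genes that cross coding sequence of the partner.
BACE1-AS (chr11:117162418-117162539, plus strand): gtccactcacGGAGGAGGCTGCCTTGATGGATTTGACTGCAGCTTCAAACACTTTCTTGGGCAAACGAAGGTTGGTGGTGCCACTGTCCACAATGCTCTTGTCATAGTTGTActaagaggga
CACNA1C-AS2 (chr12:2778089-2778192, minus strand): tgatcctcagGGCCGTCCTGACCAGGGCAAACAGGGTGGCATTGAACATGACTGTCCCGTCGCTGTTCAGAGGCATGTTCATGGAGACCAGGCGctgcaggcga
GLIS3-AS1 (chr9:3898681-3898845, plus strand): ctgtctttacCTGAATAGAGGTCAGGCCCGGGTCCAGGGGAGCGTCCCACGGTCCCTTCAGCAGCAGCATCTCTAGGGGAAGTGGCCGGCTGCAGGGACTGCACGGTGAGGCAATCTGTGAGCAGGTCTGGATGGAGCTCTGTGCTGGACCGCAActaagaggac

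The 102 shared bases of BACE1-AS are 1 whole exon of BACE1, and the 145 bases of GLIS3-AS1 are 1 whole exon of GLIS3, a transcription factor that binds the INS promoter. The 84 bases of CACNA1C-AS2 are a part of an exon of CACNA1C, the pore subunit of an L-type calcium channel of beta cells. In GENCODE all bases of these 3 blocks are protein-coding on the partner strand.

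Head-to-head was the most frequent arrangement. It held 344 of the 721 names (47.7%, exact Clopper-Pearson 95% interval 44.0 to 51.4), of which 205 overlapped the partner at the 5′ ends and 139 were separated from it by a gap of at most 1000 bases. In 227 names (31.5%, 28.1 to 35.0) one gene lay inside the span of the other, and in 210 of these the antisense gene was the inner one. Tail-to-tail pairs made up 107 names (14.8%, 12.3 to 17.6). Where 5′ overlaps of more than 1000 bases are counted as overlapping instead, head-to-head falls to 262 names and overlapping rises to 309, so the order of these 2 classes rests on that definition. A further 34 names lay more than 1000 bases from the partner, 3 lay on its strand, and 6 had no partner of that name in the assembly. The intervals, here and below, cover counting error only. The gap limit divides PDCD4-AS1, CELSR3-AS1 and RGPD4-AS1, with gaps of 890, 852 and 804 bases, from GATA3-AS1, AGBL5-AS1 and LNX1-AS2 at 1219, 1358 and 1369 bases.

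**Figure D1:**
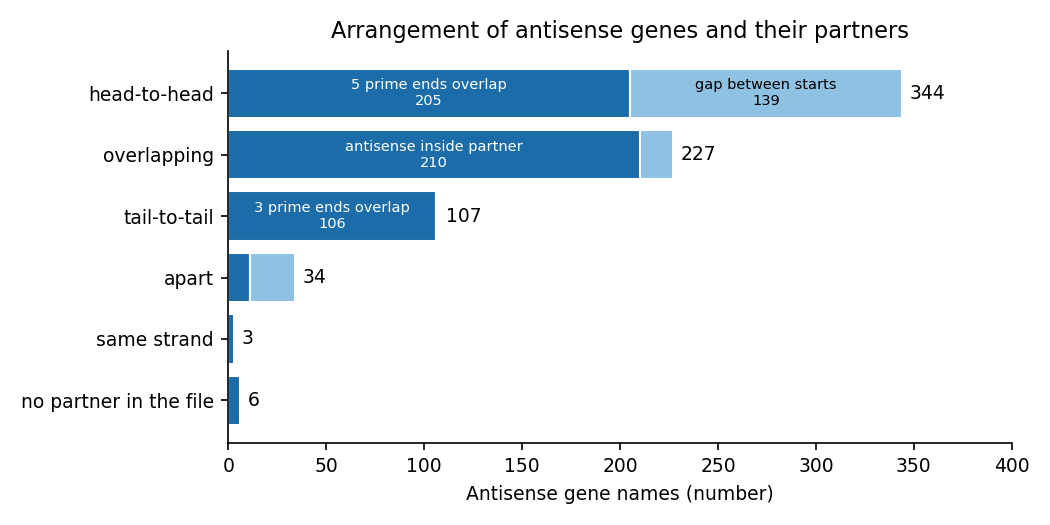
Number of antisense gene names (horizontal axis) in each arrangement with the partner (vertical axis); shades split a bar by how the pair meets. Head-to-head holds 344 names and tail-to-tail 107; the unlabelled light part of the overlapping bar is 17 names that enclose their partner, and the apart bar has 11 convergent (dark) and 23 divergent (light) names.

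Of 41 antisense names listed for islets and diabetes, 16 were in the assembly. There were 7 head-to-head, 8 nested, 0 tail-to-tail and 1 apart, and 8 of the 16 shared exon bases with the partner. PDX1-AS1 (chr13:28403896-28495541, minus strand) starts inside PDX1, the master regulator of pancreas development and of INS transcription, and the spans overlap by 1374 bases. It has 4 exons and 2002 spliced bases, none of them shared with a PDX1 exon, and RefSeq now calls it PLUT. SLC2A1-AS1 overlaps SLC2A1, which encodes the glucose transporter GLUT1, by 128 bases, and all 128 are exonic in both. STXBP5-AS1 overlaps STXBP5, an inhibitor of vesicle fusion, by 257 bases and shares 202 exon bases with it. JAZF1-AS1 shares 77 exon bases with JAZF1, a zinc finger gene at a type 2 diabetes locus, across an overlap of 362 bases. ADAMTS9-AS2 overlaps the protease gene ADAMTS9 by 2820 bases and shares 0 exon bases.

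GATA6-AS1 and GATA6, a transcription factor of pancreas formation, face each other across 468 bases, and RBMS3-AS3 and RBMS3, an RNA-binding protein gene, across 372. HNF4A-AS1 lies within HNF4A and shares 0 exon bases with it. CACNA1C holds 3 antisense names, which share 432 (CACNA1C-AS1), 84 (CACNA1C-AS2) and 0 (CACNA1C-AS4) exon bases with it. CACNA2D3-AS1 shares 122 exon bases with CACNA2D3, an auxiliary calcium channel subunit, and PAX8-AS1 shares 66 with the transcription factor PAX8. TRPM2-AS, inside the cation channel gene TRPM2, shares 0.

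**Figure D2:**
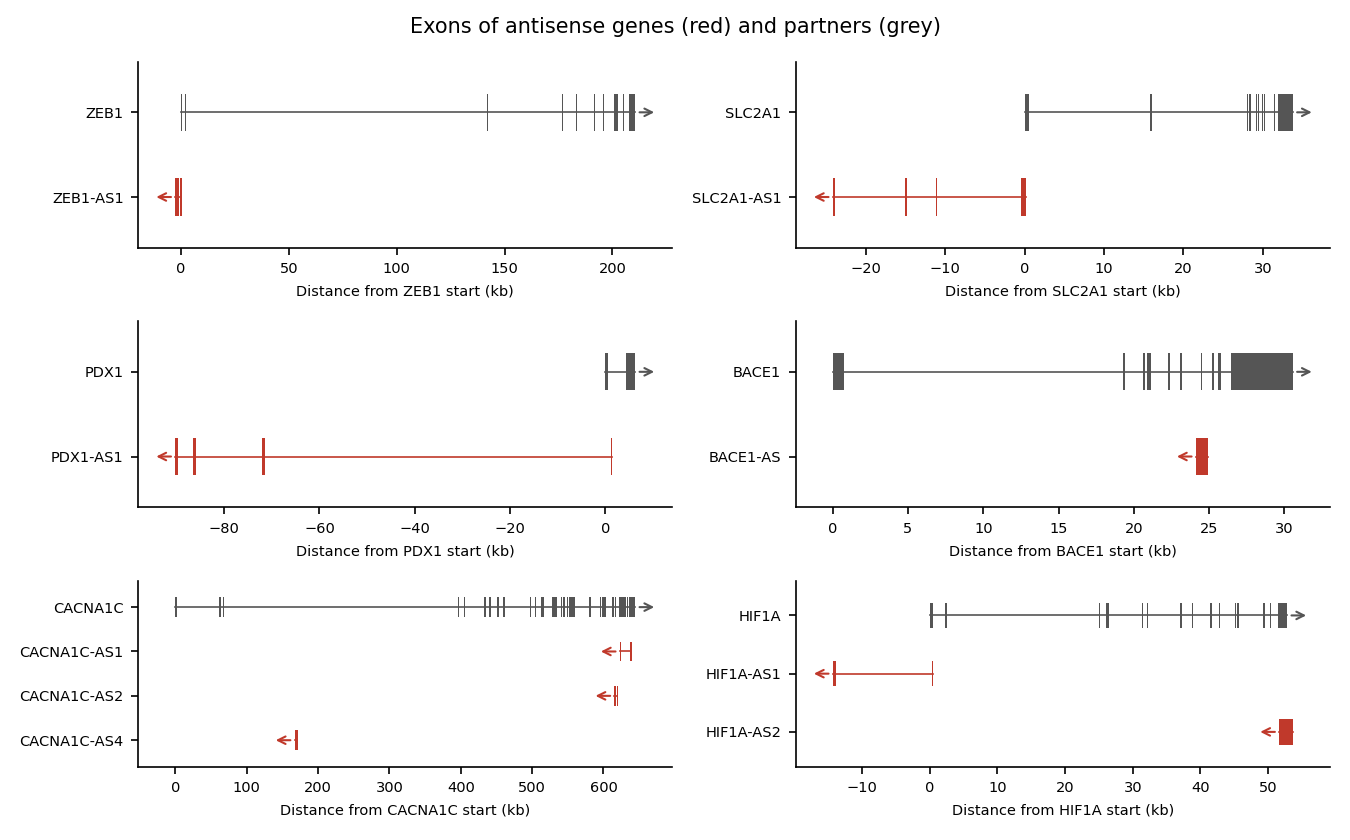
Exons (boxes) and introns (lines) of 6 partners in grey and their antisense genes in red, against distance from the partner start in kilobases along the partner; arrows give the direction of transcription and the narrowest boxes are drawn wider than scale to be visible. ZEB1-AS1, SLC2A1-AS1, PDX1-AS1 and HIF1A-AS1 run away from the partner start, BACE1-AS and the 3 CACNA1C antisense genes lie inside the partner, and HIF1A-AS2 meets the last HIF1A exon.

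Of 48 listed antisense genes with a literature of their own, 43 were in the assembly: 22 head-to-head, 8 overlapping, 9 tail-to-tail and 4 apart. Among the head-to-head pairs, WT1-AS overlaps the kidney transcription factor gene WT1 by 18 bases, all of them exonic in both. MAPT-AS1 overlaps MAPT, the tau gene, by 1132 bases and shares 0 exon bases. FEZF1-AS1 shares 611 exon bases with the zinc finger gene FEZF1, and TMPO-AS1 shares 481 with TMPO, a gene of the nuclear lamina. SOX21-AS1 and PCBP1-AS1 share none and start 580 and 437 bases from the transcription factor gene SOX21 and the RNA-binding protein gene PCBP1.

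The tail-to-tail members of this list shared from 41 to 4496 exon bases with the partner. FAM13A-AS1 shared 825 bases with FAM13A, AFAP1-AS1 471 with the actin-binding protein gene AFAP1, and MCM3AP-AS1 468 with MCM3AP. GAS6-AS1 shared 203 bases with GAS6, a ligand of TAM receptors, NPPA-AS1 118 with the atrial natriuretic peptide gene NPPA, and GAS5-AS1 41 with the non-coding gene GAS5. Among nested names, VPS9D1-AS1 shared 416 bases with VPS9D1, while DSCAM-AS1 shared 0 with the cell adhesion gene DSCAM. OIP5-AS1 lies 9670 bases from OIP5, a gene of centromere assembly, with the 3′ ends facing.

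Most head-to-head pairs started close to each other, which the limit on the gap sets in part. The distance between the nearest starts, counted as positive for a gap and negative for an overlap, had a median of −8 bases over the 344 pairs. Measured between the outermost starts instead, the median was −217 bases. It was within 300 bases in 169 pairs and within 1000 bases in 285. The pairs with a gap had a median of 123 bases (2 to 890). Per distance range, 58 head-to-head pairs lay between 0 and 100 bases, 62 between 101 and 300, 21 between −100 and −1 and 28 between −300 and −101. Some pairs whose spans overlap have a positive nearest distance, since their genes have several starts: LEF1-AS1, opposite a Wnt pathway transcription factor, has a nearest distance of 727 bases although its span overlaps that of LEF1.

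**Figure D3:**
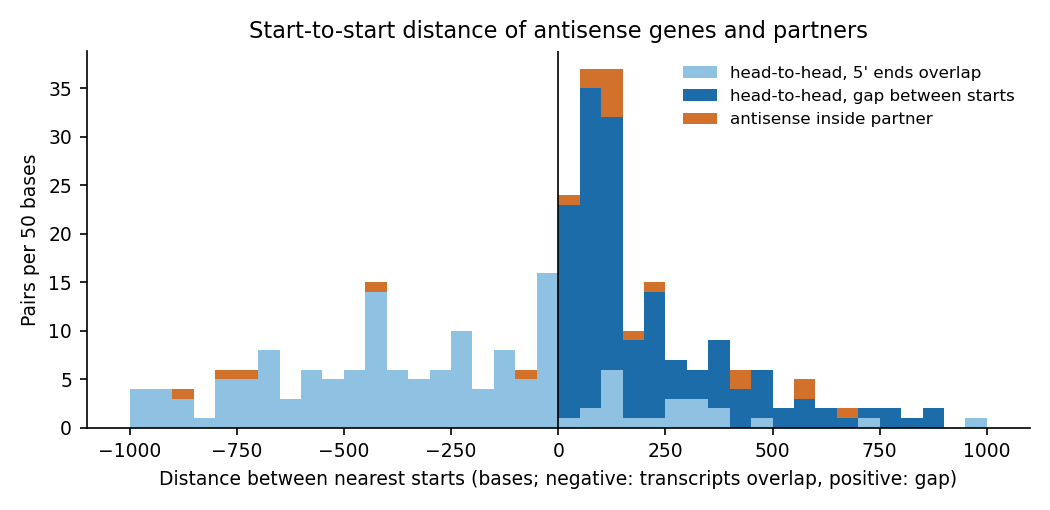
Number of pairs per 50 bases (vertical axis) against the distance between the nearest starts in bases (horizontal axis, negative for an overlap) within 1000 bases; colours give the arrangement. The counts are highest just to the right of 0, where pairs with a gap dominate, and pairs with overlapping 5′ ends spread to −1000.

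CpG content at the start varied with the arrangement. For antisense genes and partners, the start is here the outermost one of the name, not the nearest one used for the distances above. A start window, 250 bases before to 50 bases after the start, was called CpG-rich at 50% GC or more and an observed over expected CpG ratio of 0.6 or more, which 51.4% of all gene names on these chromosomes met. Among the antisense starts it was met by 119 of 139 pairs with a gap (85.6%, 78.7 to 91.0), 123 of 205 with overlapping 5′ ends (60%, 52.9 to 66.8), 46 of 107 tail-to-tail names (43.0%, 33.5 to 52.9) and 30 of 227 overlapping names (13.2%, 9.10 to 18.3). The intervals of the first and the last of these do not overlap with any other. Other non-coding names of 200 bases or more met it in 28.3% and other coding names in 59.9%. Partner starts met it in 129 of 139 pairs with a gap, 126 of 205 with overlapping 5′ ends, 65 of 107 tail-to-tail pairs and 112 of the 200 partners of overlapping names. Both starts were CpG-rich in 119 of 139 pairs with a gap and in 13 of 227 overlapping pairs. In 125 of the 139 pairs with a gap the windows of the pair share bases, so those starts are not separate observations.

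**Figure D4:**
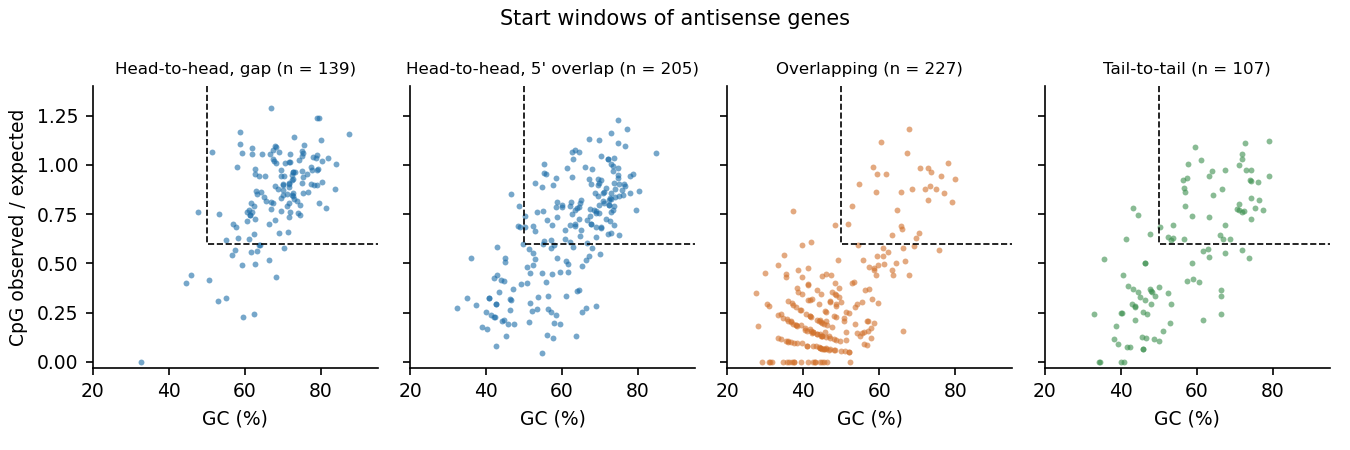
Observed over expected CpG ratio (vertical axis) against GC percent (horizontal axis) of the start window; 1 point is 1 antisense gene, with a panel per arrangement, and the dashed corner bounds the CpG-rich range. Of the names with a gap 119 of 139 lie inside the corner, of the overlapping names 30 of 227.

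Sequence motifs were searched in the same windows on both strands. The letters TATAAA occurred in 11.0% of all windows, in 5 of 139 antisense starts with a gap (3.60%, 1.18 to 8.19), in 14 of 205 with overlapping 5′ ends, in 14 of 107 tail-to-tail names and in 43 of 227 overlapping names (18.9%, 14.1 to 24.7). CCGGAAG, the core of ETS factor sites, occurred in 10.8% of all windows, in 24 of 139 with a gap (17.3%, 11.4 to 24.6), in 14 of 205 with overlapping 5′ ends (6.83%, 3.78 to 11.2), in 14 of 107 tail-to-tail names (13.1%, 7.34 to 21.0) and in 6 of 227 overlapping names (2.64%, 0.976 to 5.66). GCATGCGC, part of the site of the factor NRF1, occurred in 3.47% of all windows, in 16 of 139 with a gap (11.5%, 6.72 to 18.0), in 10 of 205 with overlapping 5′ ends, in 4 of 107 tail-to-tail names and in 2 of 227 overlapping names. CCAAT occurred in 35.5% of all windows, in 41 of 139 with a gap (29.5%, 22.1 to 37.8), in 49 of 205 with overlapping 5′ ends, in 38 of 107 tail-to-tail names and in 77 of 227 overlapping names (33.9%, 27.8 to 40.5). Median GC was 69.7% in the windows with a gap and 46% in those of overlapping names, and its part in these shares was not tested. A match describes letters, not binding.

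Nested antisense genes sat in long partners. The 210 names inside their partner had a median span of 6434 bases, in partners with a median span of 216294 bases. Their starts lay at a median of 59.5% of the way along the partner (quartiles 28.1% and 85.1%), and of 5 equal stretches the last held 66 and the others 33 to 39. On the opposite strand, the start is the end of the antisense gene that lies farthest along the partner. These positions are therefore shifted toward the partner's end by construction, more so for long antisense genes. Of these names 113 lay wholly inside 1 intron of the longest partner model, 50 of them in the first intron and 18 in the second. The part of partner intron length that lies in first introns is not set beside these counts, so a preference for any intron was not tested. DLGAP1, a scaffold gene of synapses, holds 5 antisense names, all nested and none sharing an exon base with it. CACNA1C, NAV2, PCDH9, PRICKLE2 and ZNF32 have 3 each, and 39 partners have more than 1, so the 86 antisense names of those partners are not independent. In 17 names the antisense gene encloses its partner, as DLX6-AS1 does the homeobox gene DLX6 and SNAI3-AS1 the zinc finger gene SNAI3.

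Exons of the pair overlapped in 310 of 712 pairs on opposite strands (43.5%, 39.9 to 47.3). The 712 include 139 head-to-head pairs with a gap and 34 apart pairs, which cannot share a base. Where exons overlapped depended on the arrangement by construction. Of 344 head-to-head pairs 146 shared exon bases, 133 of them with the first exon of the partner. Those 146 are all among the 205 with overlapping 5′ ends (71.2%, 64.5 to 77.3). Of 107 tail-to-tail pairs 87 shared exon bases, 53 of them with the last exon and 33 with none but exons that are neither first nor last. Of 227 overlapping pairs 77 did, 46 of them with such internal exons alone. The shared bases were protein-coding in GENCODE for 40.1% of 33377 bases in head-to-head pairs, 50.9% of 31600 in overlapping pairs and 50.9% of 45284 in tail-to-tail pairs. Coding bases were touched in 75 of 146, 72 of 77 and 68 of 87 of the sharing pairs. An antisense gene covered at least 1 whole partner exon in 44 of the 146, 34 of the 77 and 33 of the 87 pairs.

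TTN-AS1 shared the most exon bases with its partner, 4496 in 26 blocks, of which 7 are whole exons of TTN, the giant spring protein of muscle. GRM5-AS1 followed with 4364 bases of the glutamate receptor gene GRM5 in 1 block, PRICKLE2-AS1 with 3101 of the planar polarity gene PRICKLE2, CERS6-AS1 with 2819 of the ceramide synthase gene CERS6, and SNRK-AS1 with 2639 of the kinase gene SNRK. HIF1A-AS2 is 1 exon of 2051 bases, of which 1221 lie under HIF1A, the oxygen-sensing transcription factor, and 44 of these are coding. HIF1A-AS1, at the other end of the same gene, shares 117 bases. EGFR-AS1 shares 186 bases, 1 whole coding exon of the growth factor receptor gene EGFR. ZEB2-AS1 shares 223 bases with ZEB2, the paralog of ZEB1, in 2 blocks with 0 coding bases.

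Reads from bases that carry exons on both strands cannot be assigned in a count that ignores strand, and the labels do not say whether the library kit keeps it. At least 50% of the exon bases lay under an opposite exon of any gene in 30 of 721 antisense names (4.16%, 2.82 to 5.89), where all gene names together gave 0.913% and other non-coding names 0.706%. The antisense names were chosen by an ending given to genes opposite another, so a higher share than in other names is partly set by that choice. The share was 11 of 107 in tail-to-tail, 14 of 227 in overlapping and 5 of 344 in head-to-head names. Those 5 are among the 205 with overlapping 5′ ends, since pairs with a gap cannot lie under partner exons. PAPPA-AS1, PCNA-AS1 and PEG3-AS1, single-exon names inside PAPPA, the clamp gene PCNA and the imprinted gene PEG3, had 100% of their bases covered. FBXO22-AS1 had 99.6%, CERS6-AS1 94.4% and GRM5-AS1 90.5%. In 394 of 721 names no base was covered. Of the islet names, GLIS3-AS1 had 19.9%, CACNA1C-AS1 19.4%, SLC2A1-AS1 11.4% and PDX1-AS1 0%.

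**Figure D5:**
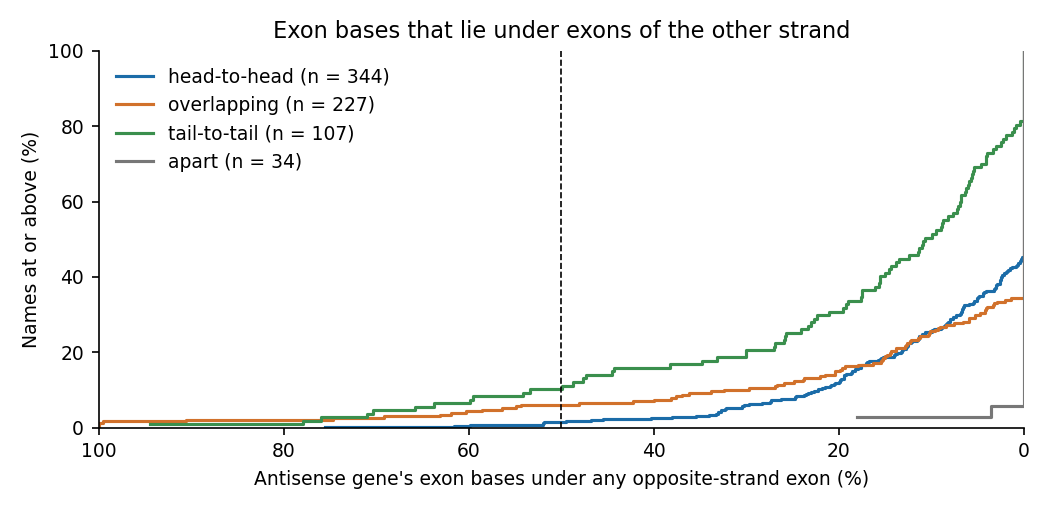
Share of antisense names (vertical axis, percent of the class) with at least a given percent of exon bases under exons of the opposite strand (horizontal axis, falling from 100 on the left); lines give the class, the dashed line marks 50%. At that mark the tail-to-tail line stands at 11 of 107 names and the head-to-head line at 5 of 344.

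A model that the assembly tags as differing in its chain of introns from the reference transcripts is called a joined model here. Of all gene names with a multi-exon reference transcript 12.4% had 1, against 23 of 659 antisense names (3.49%, 2.23 to 5.19) and 133 of 655 partners (20.3%, 17.3 to 23.6). The share depended on how many reference models a name has: it was 0 of 505 antisense names with 1 reference model, 4 of 90 with 2, 7 of 32 with 3 and 12 of 32 with 4 or more. At partners it was 1 of 262, 13 of 149, 33 of 99 and 86 of 145 in the same order, and at other non-coding names 40 of 2300, 28 of 304, 25 of 90 and 31 of 74. With 4 or more reference models, the interval of antisense names (21.1% to 56.3%) overlaps that of partners (50.8% to 67.4%). By arrangement, joined models were found at 15 of 305 head-to-head, 1 of 210 overlapping, 5 of 105 tail-to-tail and 2 of 32 apart names. Among all names with at least 2 reference transcripts 27.8% had a joined model, and 14.9% of the antisense names did.

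The 23 names had 47 joined models, and all 47 used introns, starts and ends that reference transcripts already have. In 42 of them the chain was made of 2 runs of reference introns, and 7 of the 47 chains are in GENCODE. Without reads, a chain spliced in the cells cannot be told from one put together in the assembly. LRRC75A-AS1 had the most, 9 joined among 41 models. It is now called SNHG29 in RefSeq and holds the small nucleolar RNAs SNORD49A, SNORD49B and SNORD65. NR2F1-AS1, divergent from a nuclear receptor gene, had 5 joined among 15 models, TP73-AS1, tail-to-tail with the p53 relative TP73, 4 of 9, and FMR1-AS1, opposite the fragile X gene FMR1, 3 of 8. GATA3-AS1, divergent from the transcription factor GATA3, had 3 of 9, each with 4 exons where the nearest reference model has 3. The joined model shared more partner exon bases than the nearest reference model in 8 of the 47, fewer in 3 and as many in 36. The joined model of MAGI2-AS3 is one of the 8, with 172 exon bases shared with the synaptic scaffold gene MAGI2 where the nearest reference model has 0. The overlap is not new to the pair. The share of pairs with shared exons was 43.5% with reference models alone too, so another reference model of MAGI2-AS3 also overlaps MAGI2 exons. At 5 names both the antisense gene and the partner had joined models.

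Antisense genes were short and lightly annotated next to their partners, as were other non-coding names of 200 bases or more. The median exon number was 3, where partners had 10 and those other non-coding names 4. The median spliced length was 1569 bases, where partners had 3754.5 and the other non-coding names 1663. Spliced length was lowest in overlapping names (median 951 bases) and higher in head-to-head (1794) and tail-to-tail names (1920). One reference model was all that 567 of 721 names had, and 62 had 1 exon. The longest reading frame had a median of 77 amino acids, against 92 in the other non-coding names. C1QTNF9B-AS1, GDNF-AS1 and RUSC1-AS1 carry a protein-coding accession. Of 2258 introns 97.6% had GT-AG ends and 1.90% GC-AG. A polyadenylation signal, AATAAA or ATTAAA in the last 40 bases, was found in 62.6% of names (58.9 to 66.1), against 71.5% of all names of 200 bases or more and 61.6% of other non-coding names. By span, PTCHD1-AS was longest at 1033350 bases, followed by RNF219-AS1 at 562471 and C8orf37-AS1 at 541308.

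Antisense names were spread unevenly over the chromosomes. Chromosome 13 had 57 of 528 gene names (10.8%) and chromosome 3 had 92 of 1357 (6.78%), while on chromosome 19 the share was 1.18%. Over chromosomes 1 to 22 and X together it was 721 of 25088 gene names. These shares count gene names and do not measure transcription in these cells, and why they differ was not tested. Small RNAs lay in 6 antisense genes, 4 with a microRNA and 2 with small nucleolar RNAs. The second of the latter is EPB41L4A-AS1, which holds SNORA13 and is the single tail-to-tail name with a gap, 116 bases from EPB41L4A.

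Of the 34 apart names 23 were divergent from the partner and 11 convergent with it. For 29 of them the nearest gene of the opposite strand, the partner or another, also lay more than 1000 bases away. FGD5-AS1, NUTM2A-AS1 and THUMPD3-AS1 lay head-to-head with another gene, NR2C2, LOC439994 and SETD5. SRGAP2-AS1 lay 85376434 bases from SRGAP2 and encloses SRGAP2D, a partial copy of the same gene. IFNG-AS1 lay 133442 bases from IFNG, the interferon gamma gene, and NFIA-AS2 106497 from NFIA. BHLHE40-AS1, HNRNPU-AS1 and TMLHE-AS1 lay on the strand of the partner, and the accession of HNRNPU-AS1 now belongs to HNRNPU. JHDM1D-AS1 had no partner under that name, but KDM7A, the current name, starts 319 bases from it.

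Current symbols varied with the arrangement. A RefSeq entry was matched for 720 names, and 592 still have the same symbol. The ending -DT, for divergent transcript, is now used for 68 of 139 names with a gap (48.9%, 40.4 to 57.5) and for 4 of 205 with overlapping 5′ ends. It is used for none of the 226 matched overlapping, 107 tail-to-tail or 34 apart names (0 in each class). Since the ending is meant for divergent pairs, its absence from overlapping and tail-to-tail names follows from its meaning. UCHL1-AS1, SLC2A1-AS1 and TMEM161B-AS1 are among those renamed. Of 968 multi-exon reference chains 840 (86.8%) are in GENCODE as a whole.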

How the data were processed

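Per the tags in the deposited file, 1 Cufflinks merged assembly holds the exon positions for all 6 libraries, made with TopHat2 and Cufflinks on hg19 per the submitters' processing notes, which give neither version nor setting here. In the deposited file each line gives where an exon begins and ends, with no count or other abundance. Spans, exon unions and classes were computed in Python 3.11.15 (numpy 2.4.6, pysam 0.24.0 for sequence, scipy 1.17.1 for intervals). The class code was checked for slips on pairs simulated under the same rules (2000 of 2000 recovered). Names that enclose their partner, convergent apart names and gaps between 3′ ends were not simulated. A model is a reference model where its class is an exact match to a RefSeq accession. Sequence came from GRCh37, the same build as hg19, coding bases from GENCODE release 44 lifted to it, and current symbols from RefSeq tables of GRCh38.p14, of which no coordinate was used.

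The members, lists and measures were chosen with earlier results of these data known. The text names the members of 2 fixed lists (islet and diabetes partners, and antisense genes with a literature of their own) and the extremes of each measure: the 5 shortest start distances, the 5 with the most shared bases or joined models, the 3 with the most models or longest spans, the 3 largest gaps, and all on the partner strand. One listed name is not reported here. Comparisons are descriptions with exact Clopper-Pearson intervals at 95% confidence, and no test was run. PABPC1L2B-AS1 has 2 placements on X, and the nearer to its partner was used. Alternatives were the gap limit, the models and starts used, the limits on shared and covered bases, the joined model count and denominator, the windows, the signal and the match to GENCODE.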

Additional observations from a re-analysis of the deposited data

How the results depend on the processing

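Of 42 values under another setting, 33 stayed within 1.5 times the count, or within the interval or spread, of the value reported, and 9 moved. No single value changed sign, but the order of the 2 largest classes turned round under 1 definition, given below. With a gap of up to 5000 bases, 20 names remained apart in place of 34. Asking for at least 50 shared bases gave 38.6% of pairs with shared exons, and a limit of 90% gave 0.832% of names as covered. At least 2 joined models were found at 1.52% of names, and among names with at least 2 reference transcripts the share with a joined model was 14.9%. With AATAAA as the only signal the shares were 48.0% (head-to-head), 47.6% (overlapping) and 51.4% (tail-to-tail). Every intron was found in GENCODE, in any transcript, for 90.4% of chains. These settings are stricter or wider by construction. Of 5 other definitions of spans and gaps, the 1 that counts 5′ overlaps over 1000 bases as overlapping put that class (309 names) before head-to-head (262), and under the other 4 the classes kept their order by size. No paired analysis was possible because the assembly has no value per library. The median start distance was −217 bases between outermost starts in place of −8, inside the quartiles of the distances. Depth could not be assessed, and most models are reference transcripts. With reference models alone, the class counts, the 43.5% of pairs with shared exons and the 4.16% of covered names were unchanged. Those counts therefore describe RefSeq annotation and not transcription in these cells.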
